A study of Mus musculus with 18 samples.

Results

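The baseline transcriptome of E0771 cells was read from the control cell line (cntrl), which was given DMSO as the control for the inhibitor used elsewhere in the study. It comprises 3 of the 18 RNA-seq libraries of the series, and they were chosen by their titles alone, which name a non-targeting Renilla shRNA and DMSO. E0771 is a mouse mammary tumor line that the labels describe as triple negative. The cells carried a lentiviral CMV-Firefly luciferase construct selected with puromycin and a retroviral LENC vector (pMSCV-IRES mCherry) with the control hairpin, were sorted on mCherry, and received DMSO for 48 h before total RNA was taken. The study set this line beside 2 hairpin lines against Cdk8, each with and without the CDK8/19 inhibitor Senexin B, and the other 15 libraries were not used here. The study's methods call the control untreated in one place, and the labels say DMSO. Neither states whether the 3 libraries came from separate cultures, so the SDs given here measure the spread between libraries, which may be technical. Counts of the luciferase and mCherry transgenes were not analysed here.

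Mammary epithelium has a luminal layer, which carries simple keratins, tight junctions and, in part of its cells, hormone receptors, and a basal layer of contractile myoepithelial cells with their own keratins. Carcinoma cells that pass through an epithelial-mesenchymal transition lower E-cadherin and keratins, raise vimentin, and express transcription factors of the Snail, Twist and Zeb families. Basement membrane is built from laminins and network-forming collagens, whereas fibrous stroma is built from fibrillar collagens and fibronectin, usually made by fibroblasts. Tumor cells are read by T cells through MHC class I and by natural killer (NK) cells through stress ligands and missing MHC class I.

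The libraries held 16452260, 18482623 and 20828547 counts. Levels between genes were compared in TPM (counts divided by gene length and brought to the same sum in every library), and values are the mean ± SD over n = 3 libraries unless each library is given. A gene was taken as expressed when it reached at least 1 TPM in every library, as highly expressed at 100 TPM in every library, as not detected at no more than 3 counts in every library, and as trace otherwise. Of 21841 protein-coding genes, 8107 were expressed below the high class and 2383 were high, which makes 10490 genes or 48.0%, while 9776 (44.8%) were not detected. The median protein-coding gene stood at 0.681 TPM. The counts of expressed genes in each list below are to be read beside the 48.0% of protein-coding genes. The libraries were alike, with a Pearson correlation across genes of 0.996 to 0.997 on the log2 CPM scale and a common biological coefficient of variation of 0.0347, and none was a copy of another. The count of a gene in bulk RNA cannot tell fewer cells that express it from less RNA in each cell.

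**Figure D1:**
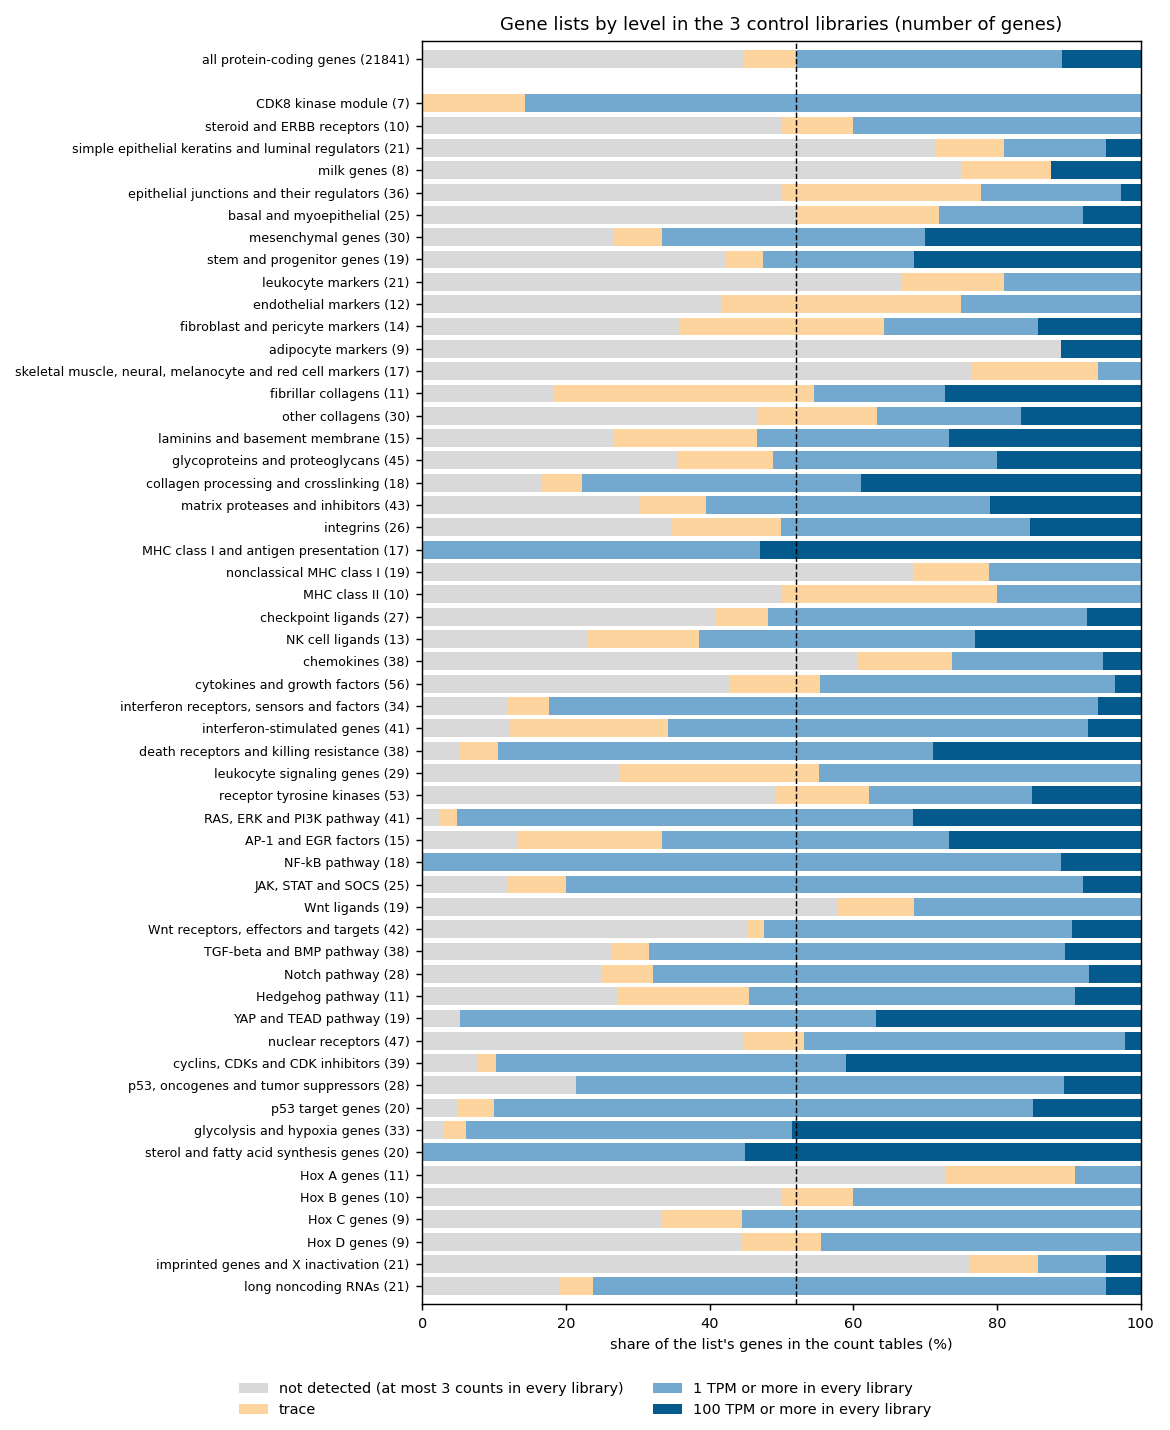
Each bar is a list of genes, with the number of its genes in the count tables in brackets, and its colors give the share of them (%) that was not detected, at trace level, at 1 TPM or more and at 100 TPM or more in every one of the 3 control libraries. The top bar is all protein-coding genes, and the dashed line marks where its expressed genes begin. Lists of MHC class I, NF-kB and lipid synthesis genes were expressed in full, whereas in the lists of epithelial, leukocyte and imprinted genes the expressed share begins well to the right of that line.

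The highest levels belonged to mitochondrial, ribosomal, chaperone and cytoskeletal genes. The mitochondrial gene mt-Nd1, a subunit of respiratory complex I, had 11760.3, 10148 and 8266 TPM, and all mitochondrial genes took 4.79%, 3.97% and 3.26% of the TPM of replicates 1, 2 and 3. Among nuclear genes, the ferritin heavy chain Fth1 stood at 7647 ± 241 TPM, the chaperone Hsp90ab1 at 6477 ± 151 TPM, the galectin Lgals1 at 5873 ± 231 TPM and beta-actin Actb at 5052 ± 82.7 TPM. The intermediate filament Vim, the calcium-binding protein S100a6, the MHC light chain B2m and the collagen chaperone Serpinh1 were also among the 20 highest protein-coding genes. Reads that map to several places were left out by the authors' counter, so genes with close copies are understated. Gapdh stood at 15.2 ± 3.81 TPM with 24.7% of its 50-base windows found at another locus, and Actg1 at 5.82 ± 2.07 TPM with 36.3%, and the part of shared sequence in these low levels was not tested.

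Hormone receptors were scarce and the ERBB receptors mixed. Pgr, Erbb4 and the prolactin receptor Prlr had 0 counts in every library, where 3 counts would correspond to at most 0.0840 TPM for Pgr. Estrogen receptor alpha (Esr1, chr10:4611593-5005614 on GRCm38) was nevertheless expressed, at 6.74, 6.14 and 6.78 TPM, while Esr2 had 1, 1 and 0 counts. These levels rest on 385, 396 and 492 counts of Esr1. Erbb2, the gene of HER2, had 40.4, 42.4 and 40.8 TPM and Egfr had 39.7, 40.7 and 40.1 TPM. Erbb2 was above Egfr within each library, but their ranges across the libraries overlapped. Erbb3, the partner of HER2 in signaling, was lower at 2.54 ± 0.421 TPM. In this list 4 of 10 genes were expressed. The triple-negative name is that of the labels, and RNA levels measure neither receptor protein nor HER2 gene copy number.

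The keratins of luminal epithelium were not detected. Krt8 had 1, 1 and 1 counts in the 3 libraries, Krt18 0, 1 and 0 counts, Krt19 0, 0 and 1 counts and Krt7 3, 3 and 1 counts. These keratins form the filaments of simple epithelia. Krt8 shares 26.9% of its windows with other loci, so part of its reads may have been left out. The luminal regulator Gata3 had 0, 0 and 2 counts and Elf5 had 0 counts in every library. Foxa1, a pioneer factor for estrogen receptor binding, was expressed at a low level of 3.33 ± 0.415 TPM. Of the luminal list 4 of 21 genes were expressed, with a list median of 0.0692 TPM against 0.681 TPM over protein-coding genes. Besides Foxa1 they were the secretory factor Xbp1 (167 ± 6.59 TPM), the EGFR ligand Areg (47.7 ± 4.29 TPM) and the epithelial factor Elf3 (1.80 ± 0.215 TPM). The caseins, Wap and Lalba, which make milk, were at 0 to 2 counts in any library, and the milk fat globule gene Mfge8 (178 ± 6.59 TPM), which many cell types use, was the expressed one of that list of 8.

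Epithelial junction genes followed the keratins, with an exception for the scaffold. E-cadherin (Cdh1, chr8:106603351-106670246) had 2, 1 and 5 counts, Epcam 0, 0 and 2 counts, and Cldn3, Cldn4 and Cldn7 had 0 counts in every library. The epithelial splicing factor Esrp1 and the repressor of mesenchymal genes Ovol2 also had 0 counts in each library, and Grhl2, which holds epithelial genes open, had 9, 12 and 6 counts. By contrast, the tight junction scaffold Tjp1 was highly expressed at 199, 182 and 188 TPM, and occludin Ocln (11.8 ± 0.267 TPM) and the desmosomal plakophilin Pkp2 (22.6 ± 1.75 TPM) were expressed. In all, 8 of 36 genes were expressed, 10 stood at trace level and 18 were not detected.

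Basal keratins were not detected either. Krt5, Krt14, Krt17, the basal master factor Trp63 and P-cadherin Cdh3 had 0 counts in every library. The contractile markers of myoepithelium parted. Smooth muscle actin Acta2 was high at 290.1, 324 and 313 TPM, the myosin kinase Mylk was expressed at 22.2, 20.6 and 21.6 TPM and the enteric smooth muscle actin Actg2 was near the threshold at 1.08, 1.22 and 1.93 TPM, whereas Tagln had 3, 1 and 0 counts, smooth muscle myosin Myh11 1, 0 and 2 counts and calponin Cnn1 0 counts in every library. The laminin receptor Itga6 (301 ± 4.88 TPM) and the protein C receptor Procr (80.9 ± 2.67 TPM), which marks a subset of basal progenitors, were expressed. Of 25 basal and myoepithelial genes 7 were expressed.

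Mesenchymal genes had the highest median of the lineage lists, 33.9 TPM: 20 of 30 were expressed, 9 of them highly, and their summed level was 13635, 13745 and 14302 TPM. Vimentin (Vim, chr2:13573927-13582826) had 3633, 3589 and 3642 TPM, Sparc had 929, 939.7 and 974 TPM, and S100a4 had 1441, 1433 and 1599 TPM, although 51.7% of the S100a4 exon bases overlap another gene on the same strand. The hyaluronan receptor Cd44 (231 ± 1.39 TPM) and the receptor kinase Axl (369 ± 3.98 TPM) were high. The transcription factors of the transition were present together. Twist1 had 115, 119 and 120.0 TPM, Zeb1 had 74.9, 73.0 and 71.8 TPM, and Prrx1 had 56.7, 54.7 and 56.5 TPM. Below them came Zeb2 (40.2 ± 1.16 TPM), Snai1 (30.1 ± 1.81 TPM) and Snai2 (3.24 ± 0.248 TPM), an order in which no neighbors overlapped in their library values. Several mesenchymal hallmarks were nevertheless not detected. Fibronectin (Fn1) and periostin (Postn) had 0 counts in every library, where 3 counts would be at most 0.0614 TPM for Fn1. N-cadherin (Cdh2) had 1, 1 and 0 counts, Thy1 had 0, 1 and 0 counts, and cadherin 11 (Cdh11) stayed at trace level with 7, 10 and 7 counts.

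**Figure D2:**
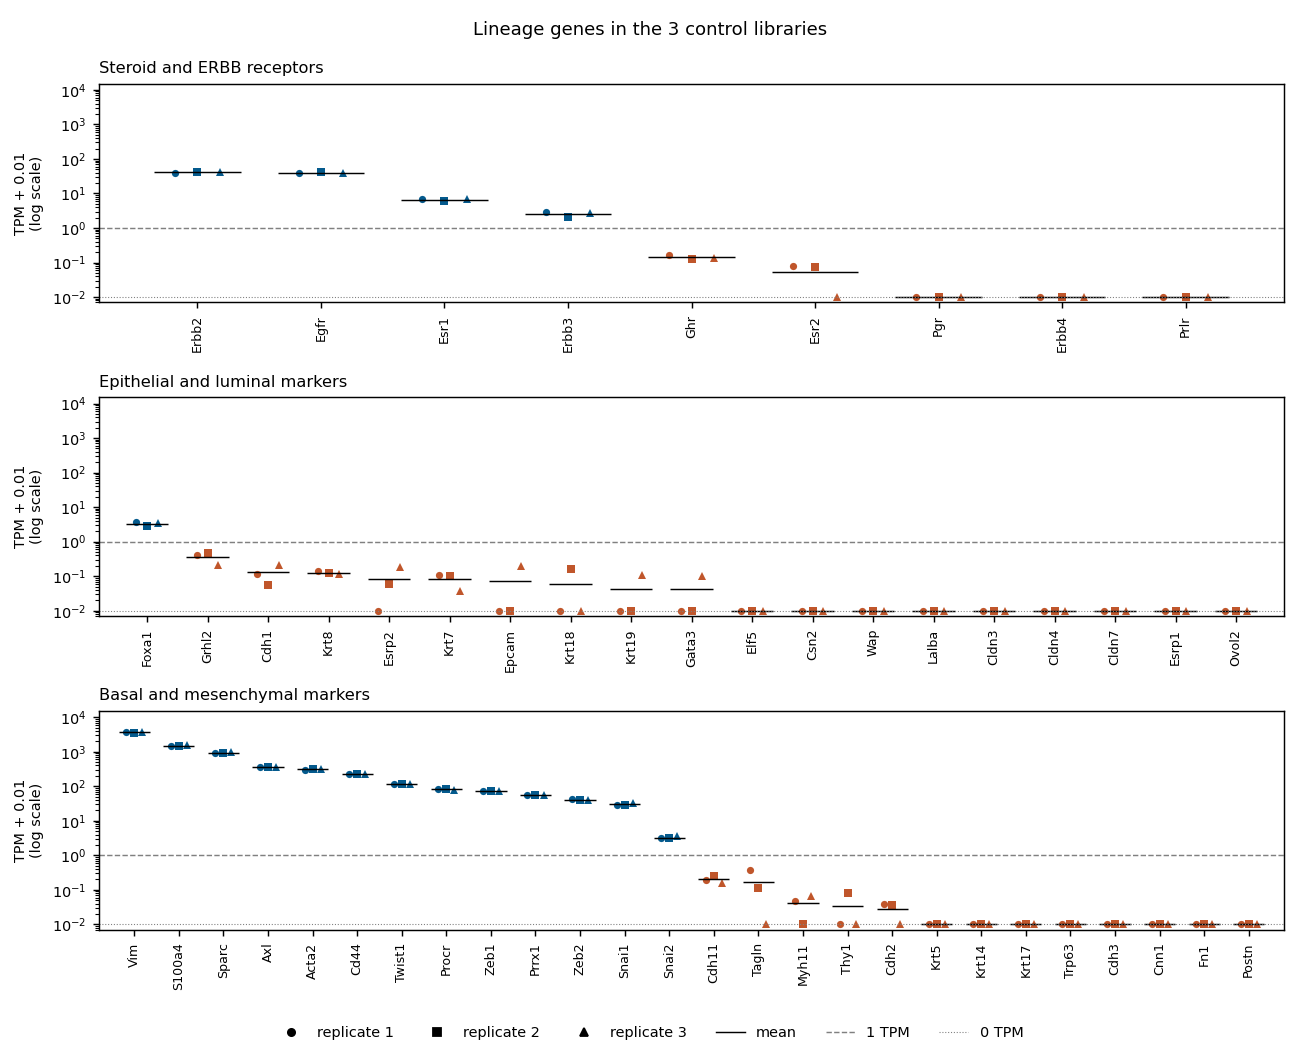
Each point is a control library (circle, square and triangle for replicates 1, 2 and 3), the short line is the mean of the 3, and the vertical axis is TPM plus 0.01 on a log scale, with a dashed line at 1 TPM and a dotted line at 0. Points are blue where the mean was at least 1 TPM and orange where it was lower. Keratins, claudins and Cdh1 lie at or near 0, and vimentin, Sparc, Twist1 and Zeb1 lie well above 1 TPM, whereas Fn1, Postn, Thy1 and Cdh2 lie with the keratins.

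Promoter sequences are shown for 3 epithelial genes that were not detected and 3 mesenchymal or matrix genes that were high, since Snail and Zeb factors are known to repress epithelial genes through the motif CACCTG. The sequences are the 250 bases before the start that RefSeq gives on GRCm38.p6, on the gene's own strand. They are in lower case with CACCTG or its reverse complement CAGGTG in capitals. For Vim this start lies within the gene as counted here (chr2:13573927-13582826), so the letters shown are inside that gene.
Epcam, chr17:87635729-87635978, plus strand: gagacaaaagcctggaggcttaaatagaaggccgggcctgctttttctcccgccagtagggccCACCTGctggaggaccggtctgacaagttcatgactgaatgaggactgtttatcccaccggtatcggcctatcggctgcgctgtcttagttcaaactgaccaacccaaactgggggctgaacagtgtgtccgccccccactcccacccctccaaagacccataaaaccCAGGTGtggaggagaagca
Krt8, chr15:102004343-102004592, minus strand: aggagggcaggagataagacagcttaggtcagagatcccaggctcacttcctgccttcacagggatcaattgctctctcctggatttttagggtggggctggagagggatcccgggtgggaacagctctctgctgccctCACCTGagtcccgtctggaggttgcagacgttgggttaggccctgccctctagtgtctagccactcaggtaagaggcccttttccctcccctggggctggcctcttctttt
Krt18, chr15:102027966-102028215, plus strand: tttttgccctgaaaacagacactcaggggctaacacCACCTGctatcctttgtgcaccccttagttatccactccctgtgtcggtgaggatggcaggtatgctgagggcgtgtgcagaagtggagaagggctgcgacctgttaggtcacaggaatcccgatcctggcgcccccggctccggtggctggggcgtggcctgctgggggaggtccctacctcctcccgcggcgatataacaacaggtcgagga
Vim, chr2:13574061-13574310, plus strand: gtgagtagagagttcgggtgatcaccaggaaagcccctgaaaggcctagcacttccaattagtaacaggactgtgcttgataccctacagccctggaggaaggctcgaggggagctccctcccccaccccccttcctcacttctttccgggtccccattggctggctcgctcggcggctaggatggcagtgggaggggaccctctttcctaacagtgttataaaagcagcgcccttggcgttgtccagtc
Twist1, chr12:33957421-33957670, plus strand: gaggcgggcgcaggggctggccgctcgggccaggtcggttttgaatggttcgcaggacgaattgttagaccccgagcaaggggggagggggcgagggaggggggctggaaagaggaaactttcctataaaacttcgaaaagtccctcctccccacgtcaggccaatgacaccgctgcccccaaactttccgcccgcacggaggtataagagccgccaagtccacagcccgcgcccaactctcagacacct
Col3a1, chr1:45311288-45311537, plus strand: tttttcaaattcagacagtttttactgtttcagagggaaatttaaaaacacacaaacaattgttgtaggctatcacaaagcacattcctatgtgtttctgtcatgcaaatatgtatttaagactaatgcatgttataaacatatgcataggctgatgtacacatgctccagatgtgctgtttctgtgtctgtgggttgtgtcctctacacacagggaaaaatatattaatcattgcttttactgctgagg
The motif occurs 2 times before Epcam, 1 time before Krt8 and 1 time before Krt18, and is not among the letters shown for Vim, Twist1 and Col3a1. Windows for Cdh1 and Fn1 were not used here. Searched on both strands in windows of 300 bases (250 before to 50 after the start, the first window listed for each gene), CACCTG was found for 19.4% of 16469 protein-coding genes, for 23.01% of those not detected and for 15.8% of those expressed. In the list of epithelial junction genes it was found for 9 of 15 genes below the expressed class and for 3 of 5 expressed ones, and in the luminal list for 7 of 12 and for 4 of 4. In the mesenchymal list it was found for 1 of 2 and for 4 of 15. Within both epithelial lists, the share with the motif was no lower among the few expressed genes that had a window. These counts describe sequence, not binding, and a part of the motif in the levels was not tested.

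CpG content differed between the classes of level. A CpG is a cytosine followed by guanine, and housekeeping genes typically start in regions rich in them. The median window held 4 CpGs in genes not detected, 9 in trace genes, 21 in expressed genes below the high class and 24 in high genes, against 14 in all 16469 genes. The middle range of genes not detected (2 to 11 CpGs) did not meet that of the high genes (17 to 31). Single genes departed from this pattern. The promoter window of Col3a1, one of the highest collagens, held 0 CpGs, and that of Krt18, which was not detected, held 17.

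**Figure D3:**
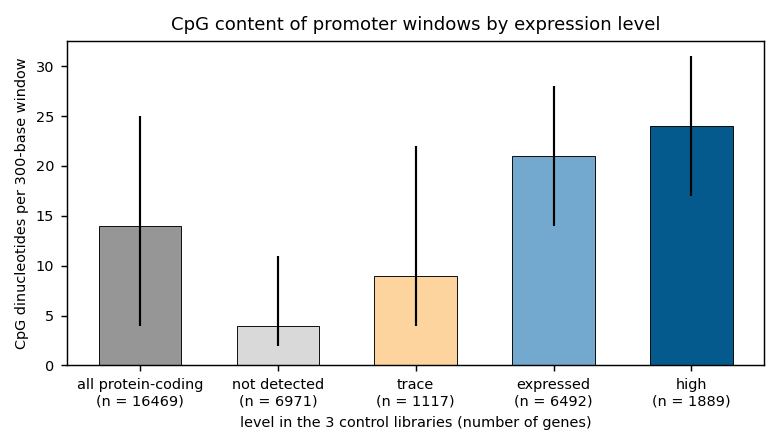
Bars give the median number of CpG dinucleotides in the 300-base promoter window of protein-coding genes, and vertical lines run from the lower to the upper quartile over genes. Genes are grouped by their level in the 3 control libraries, and the medians are 4, 9, 21 and 24 from genes not detected to high genes.

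Most markers of other cell types were below the expressed class. The pan-leukocyte gene Ptprc had 7, 3 and 5 counts (at most 0.0914 TPM), Cd3e had 0, 0 and 1 counts, and Ncr1 and Adgre1 had 0 counts in every library. Of the 21 leukocyte markers 4 were expressed and 14 were not detected, and their summed level was 41.3, 37.2 and 40.4 TPM. The expressed ones were lysozyme Lyz2 (11.997, 13.2 and 14.2 TPM), the granulocyte antigen Ly6g (14.5, 9.89 and 11.6 TPM), the lysosomal protein Cd68 (7.81 ± 0.434 TPM) and the actin regulator Coro1a (5.07 ± 0.717 TPM), while Csf1r, the receptor that defines macrophages, had 8, 5 and 9 counts. Of the 12 endothelial markers 3 were expressed, and the list summed to 17.2, 18.4 and 15.7 TPM, with Egfl7 (9.05 ± 0.828 TPM), the cadherin Cdh5 (4.01 ± 0.327 TPM) and the adhesion molecule Esam (3.24 ± 0.489 TPM) expressed while Pecam1 had 3, 7 and 6 counts and Tek had 0 counts in every library. Fabp4, a fatty acid carrier of fat cells and endothelium, was highly expressed at 606, 555 and 535 TPM. The other 8 adipocyte markers were not detected, and Adipoq, Plin1, Lep and Cfd had 0 counts in each library. The platelet-derived growth factor receptors Pdgfra (110.2, 111 and 110.2 TPM) and Pdgfrb (192, 186 and 186 TPM) were high as well. Of the 14 fibroblast and pericyte markers 5 were expressed, and the list summed to 313, 308 and 309 TPM. The matrix protein dermatopontin (Dpt, 6.94, 7.25 and 8.40 TPM), the intermediate filament desmin (Des, 1.40, 1.92 and 2.16 TPM) and the pericyte proteoglycan Cspg4 (1.78, 1.53 and 1.47 TPM) were the other expressed ones. The fibroblast proteoglycans Dcn (6, 14 and 10 counts) and Lum (0, 1 and 1 counts) and the fibroblast protease Fap (0 counts in every library) were not expressed. In the list of muscle, neural, melanocyte and red cell markers, 1 of 17 genes was expressed, Mitf at 15.9 ± 0.853 TPM, a factor of melanocytes that other cells also use.

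The CDK8 kinase module, which binds reversibly to Mediator and regulates it, was expressed at the baseline in 6 of 7 genes. Cdk8 (chr5:146231230-146302874) had 23.1, 21.8 and 21.5 TPM, and its paralog Cdk19 had 62.4, 62.5 and 61.4 TPM, so that Cdk19 lay above Cdk8 in every library. Cyclin C (Ccnc) was at 65.0 ± 1.71 TPM and Med12, which activates the kinase, at 65.1 ± 2.37 TPM, and their ranges overlapped. Med13 and Med13l, which tie the module to Mediator, stood at 50.5 ± 1.71 TPM and 33.7 ± 1.53 TPM. Med12l, the paralog of Med12, stayed at trace level with 12, 8 and 4 counts. These are the levels of RNA before any knockdown or inhibition, in a line that carries a control hairpin.

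The matrix genes with the highest levels included those of basement membrane and of collagen types III, V and VI. Among fibrillar collagens Col3a1 had 800.4, 778 and 775 TPM, Col5a1 had 292, 279 and 274 TPM and Col5a3 had 133, 128 and 121 TPM. The chains of type I collagen, the main fibrillar collagen of connective tissue, were low: Col1a1 had 15, 18 and 9 counts and Col1a2 had 0, 1 and 1 counts. Type V collagen usually pairs alpha 1 with alpha 2 chains, yet Col5a2 had 0, 3 and 5 counts. Of the 11 fibrillar collagens 5 (45.5%) were expressed, and of the 30 others 11 (36.7%), against 48.0% of protein-coding genes. The basement membrane pair Col4a1 (765, 771 and 777 TPM) and Col4a2 (391, 387 and 367 TPM) was high, while Col4a3, Col4a5 and Col4a6 had 0 counts in every library. Type VI collagen, which forms beaded filaments, was carried mainly by Col6a1 (837 ± 12.4 TPM), with Col6a2 at 150.3 ± 2.94 TPM and Col6a3 at 23.9 ± 2.34 TPM. Col18a1, a basement membrane collagen that yields endostatin, was at 189 ± 1.96 TPM.

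Laminin chains formed an uneven set. A laminin needs an alpha, a beta and a gamma chain. The gamma chain Lamc1 (332, 315 and 323 TPM) and the alpha chain Lama5 (249, 246 and 224 TPM) were high, and the beta chains Lamb2 (57.3 ± 3.11 TPM) and Lamb1 (9.25 ± 0.425 TPM) were lower. Lama2 and Lama4 had 0 counts in every library, and Lama1 had 1, 1 and 2 counts. The epithelial chains Lama3 and Lamb3 stood at 0.226 and 0.0848 TPM, both below the expressed class. The linkers nidogen 1 (Nid1, 228 ± 3.84 TPM) and perlecan (Hspg2, 148 ± 2.76 TPM) were high, while Nid2 had 2, 0 and 0 counts.

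Collagen processing was strongly represented, with 14 of 18 genes expressed and a list median of 59.7 TPM. Serpinh1, the collagen chaperone HSP47, had 2383, 2416 and 2537 TPM, and P4hb, the shared subunit of prolyl hydroxylase, had 1388, 1479 and 1514 TPM. Crosslinking enzymes were selective. Lox, the founding lysyl oxidase, had 0 counts in every library and Loxl1 had 1, 1 and 1 counts, whereas Loxl4 was expressed at 46.4 ± 1.14 TPM. Among matrix glycoproteins Spp1, the gene of osteopontin, stood at 574 ± 31.7 TPM, the syndecan Sdc4 at 585 ± 13.2 TPM and Emilin2 at 441 ± 8.03 TPM, while thrombospondin 1 (Thbs1) had 0, 2 and 1 counts. Of the 45 glycoproteins and proteoglycans 23 (51.1%) were expressed, near the 48.0% of protein-coding genes.

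Proteases and their inhibitors were both present. The membrane protease Mmp14 had 216, 224 and 226 TPM and Mmp9, a gelatinase linked to invasion, had 10.5, 10.8 and 11.5 TPM. Lysosomal cathepsins reached the highest levels of this list, with Ctsl at 1656 ± 35.5 TPM and Ctsb at 667 ± 27.0 TPM. Of the TIMP inhibitors, Timp2 (509 ± 7.21 TPM) stood above Timp1 (77.3 ± 8.51 TPM) in every library, and Timp3 had 2, 1 and 2 counts. The urokinase Plau (70.2 ± 4.07 TPM) was expressed. In total 26 of 43 genes of this group were expressed.

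Integrins for laminin and fibronectin were expressed although fibronectin itself was not detected. The common beta chain Itgb1 had 1422, 1385 and 1434 TPM. Its alpha partners Itga6 (laminin, 301 ± 4.88 TPM) and Itga5 (fibronectin, 180.3 ± 6.58 TPM) were high, and Itga4 and Itga9 had 0 counts in every library. The leukocyte beta chains Itgb7 (114, 118 and 122 TPM) and Itgb2 (45.9, 37.9 and 40.3 TPM) were expressed. Their usual alpha partners were not: Itga4 had 0 counts, Itgae had 5, 6 and 8 counts, Itgal had 29, 24 and 35 counts and Itgam had 1, 0 and 0 counts, of whose exon bases 68.7% overlap another gene. Of the 26 integrin genes 13 (50%) were expressed, near the 48.0% of protein-coding genes.

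**Figure D4:**
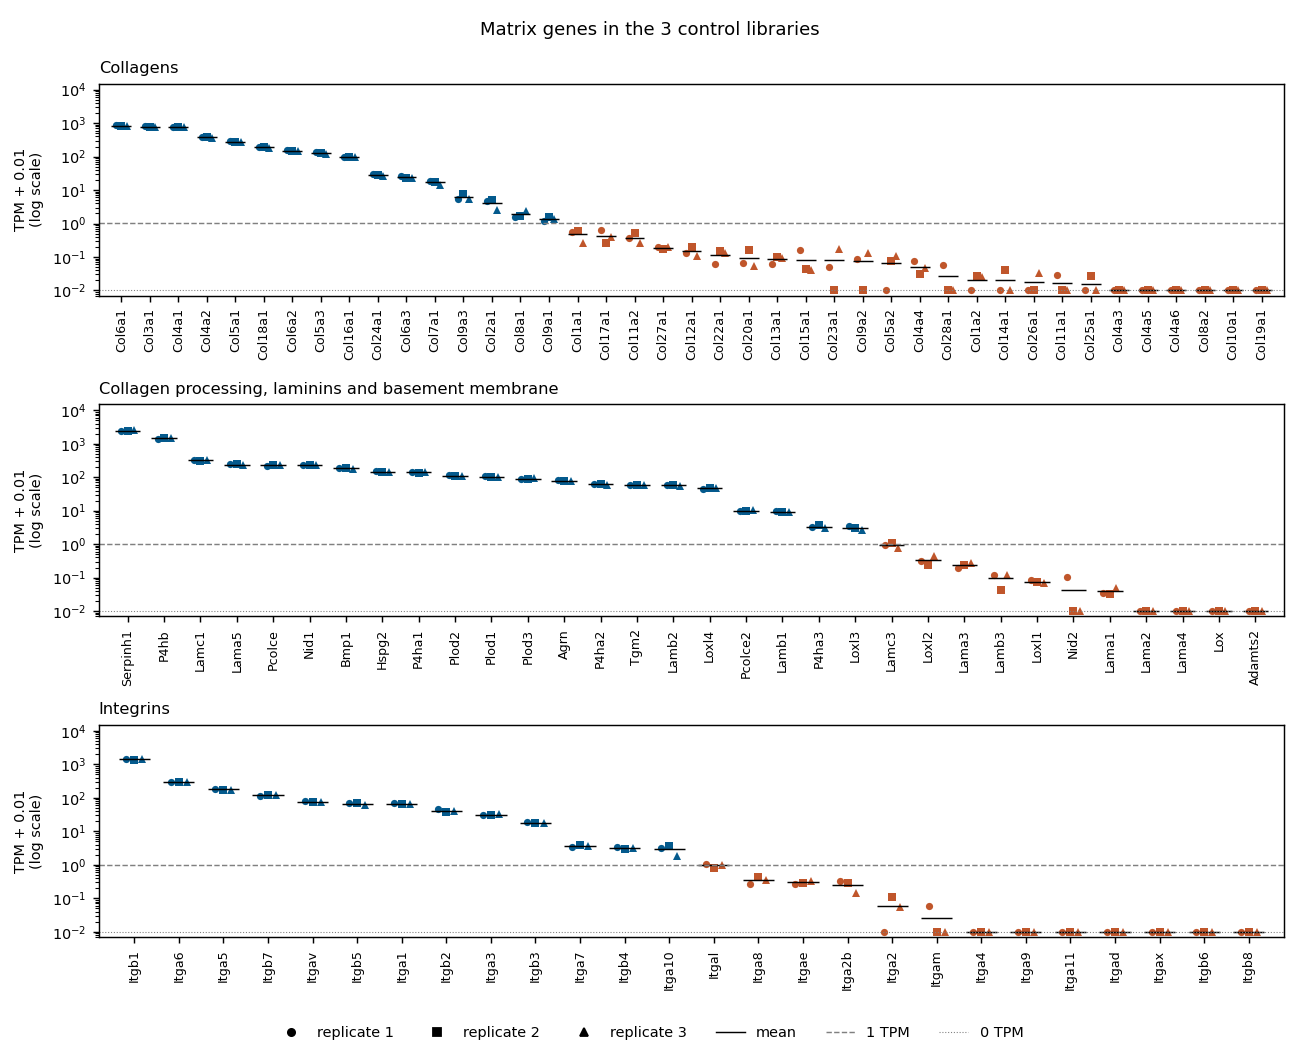
Points are the 3 control libraries, short lines their means, and the vertical axis is TPM plus 0.01 on a log scale, with a dashed line at 1 TPM and a dotted line at 0; blue marks a mean of at least 1 TPM and orange a lower one. Col6a1, Col3a1 and Col4a1 head the collagens, Col1a1 falls below 1 TPM, Lox lies at 0, and Itgb7 and Itgb2 stand above their alpha partners Itgae, Itgal, Itga4 and Itgam.

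The MHC class I pathway was expressed in full. All 17 genes of the list passed 1 TPM in every library, against 48.0% of protein-coding genes, with a list median of 105 TPM. The light chain B2m had 2910.2, 2848 and 2937 TPM, and the heavy chains H2-D1 and H2-K1 had 902, 900.3 and 918 TPM and 161, 158 and 160.5 TPM. H2-D1 lay above H2-K1 in each library, and it shares 12.8% of its windows with other loci. The peptide transporter Tap1 (48.1 ± 1.67 TPM), the transactivator Nlrc5 (34.9 ± 1.41 TPM) and the immunoproteasome subunit Psmb9 (6.70 ± 0.712 TPM) were lower. Psmb9 was the lowest member of the list.

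Nonclassical class I genes were mostly not detected. H2-T23, which presents the ligand of the NK inhibitory receptor NKG2A, had 1, 0 and 0 counts, and the H2-Q genes named here (H2-Q1, H2-Q2, H2-Q4 and H2-Q6) had 0 to 2 counts. Both kinds share sequence with other class I genes (14.5% of windows for H2-T23 and 35.0% for H2-Q6), and reads in such sequence were left out. H2-M3, which presents formylated peptides, had 67.7, 69.1 and 66.3 TPM, H2-T22 had 42.1, 42.7 and 43.3 TPM and Mr1 had 47.9, 46.2 and 43.8 TPM. Of the 19 genes 4 were expressed.

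MHC class II was not detected in its presenting chains. H2-Aa and H2-Ab1 had 0 counts in every library, and H2-Eb1 had 2, 1 and 0 counts. The transactivator Ciita had 0, 2 and 4 counts and the invariant chain Cd74 had 5, 10 and 7 counts, or 0.848, 1.502 and 0.934 TPM, which is trace level. The peptide-exchange chains H2-DMa (24.7 ± 0.587 TPM) and H2-DMb1 (10.5 ± 1.70 TPM) were expressed.

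Ligands of checkpoint receptors were divided between the families. Cd274, the gene of PD-L1, had 5.35, 6.66 and 6.08 TPM, whereas Pdcd1lg2 (PD-L2) and Cd86 had 0 counts in every library and Cd80 had 1, 2 and 1 counts. PD-L1 was the expressed member of that pair. The phagocytosis inhibitor Cd47 had 94.1, 91.5 and 92.2 TPM and Cd276 (B7-H3) had 26.7, 26.6 and 29.0 TPM. Cd24a, the other well-known phagocytosis signal, had 0 counts in every library. Ligands of the TIGIT and CD226 receptors, Pvr (85.1 ± 2.56 TPM) and Nectin2 (26.8 ± 1.74 TPM), and the galectins Lgals3 (549 ± 41.6 TPM) and Lgals9 (140.3 ± 5.29 TPM), were expressed, as was Nt5e (24.4 ± 0.635 TPM), the CD73 enzyme that makes adenosine. In this list 14 of 27 genes (51.9%) were expressed, near the 48.0% of protein-coding genes.

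Stress ligands of the NK activating receptor NKG2D were expressed. Raet1d had 122, 121 and 133 TPM, Raet1e had 95.8, 90.8 and 96.4 TPM and Ulbp1 (MULT1) had 64.7, 55.1 and 60.5 TPM. Raet1d and Raet1e overlap another gene over 25.2% and 22.97% of their exon bases, so the values of both are uncertain. Raet1a, Raet1b, Raet1c and H60a were not analysed here. Of the 13 genes in the list of NK cell ligands 8 were expressed. That list is not limited to NKG2D ligands and also holds Icam1, Pcna (130 ± 3.70 TPM) and Nid1. H60b had 1, 3 and 1 counts and the adhesion ligand Icam1 stood at 1.30 ± 0.113 TPM, near the limit of the expressed class.

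Chemokines were carried by the monocyte attractants. Ccl2 had 201, 231 and 220.4 TPM and Ccl7 had 176, 209 and 211 TPM, with overlapping ranges. The next was Cx3cl1, which attracts NK cells and T cells, at 15.1 ± 0.640 TPM. Ccl5 (4.54 ± 1.02 TPM) and the interferon-driven Cxcl10 (2.66 ± 0.308 TPM) were low, Cxcl9 had 1, 1 and 2 counts, and Cxcl5 and Cxcl12 had 0 counts in every library. Of the 38 chemokines 10 were expressed and 23 were not detected, with a list median of 0.0804 TPM. Among 56 cytokines and growth factors 25 (44.6%) were expressed, near the 48.0% of protein-coding genes. The macrophage factor Csf1 had 168, 172 and 163 TPM and the angiogenic Vegfa had 62.97, 61.8 and 55.1 TPM. Others among the higher levels were Mif (148 ± 13.8 TPM), the EGFR ligand Ereg (101 ± 3.29 TPM), Kitl (93.7 ± 2.79 TPM) and Tgfb1 (72.6 ± 3.39 TPM). The inflammatory cytokines Il6 (1, 1 and 0 counts), Il1b and Ifnb1 (0 counts in every library each) were not detected.

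**Figure D5:**
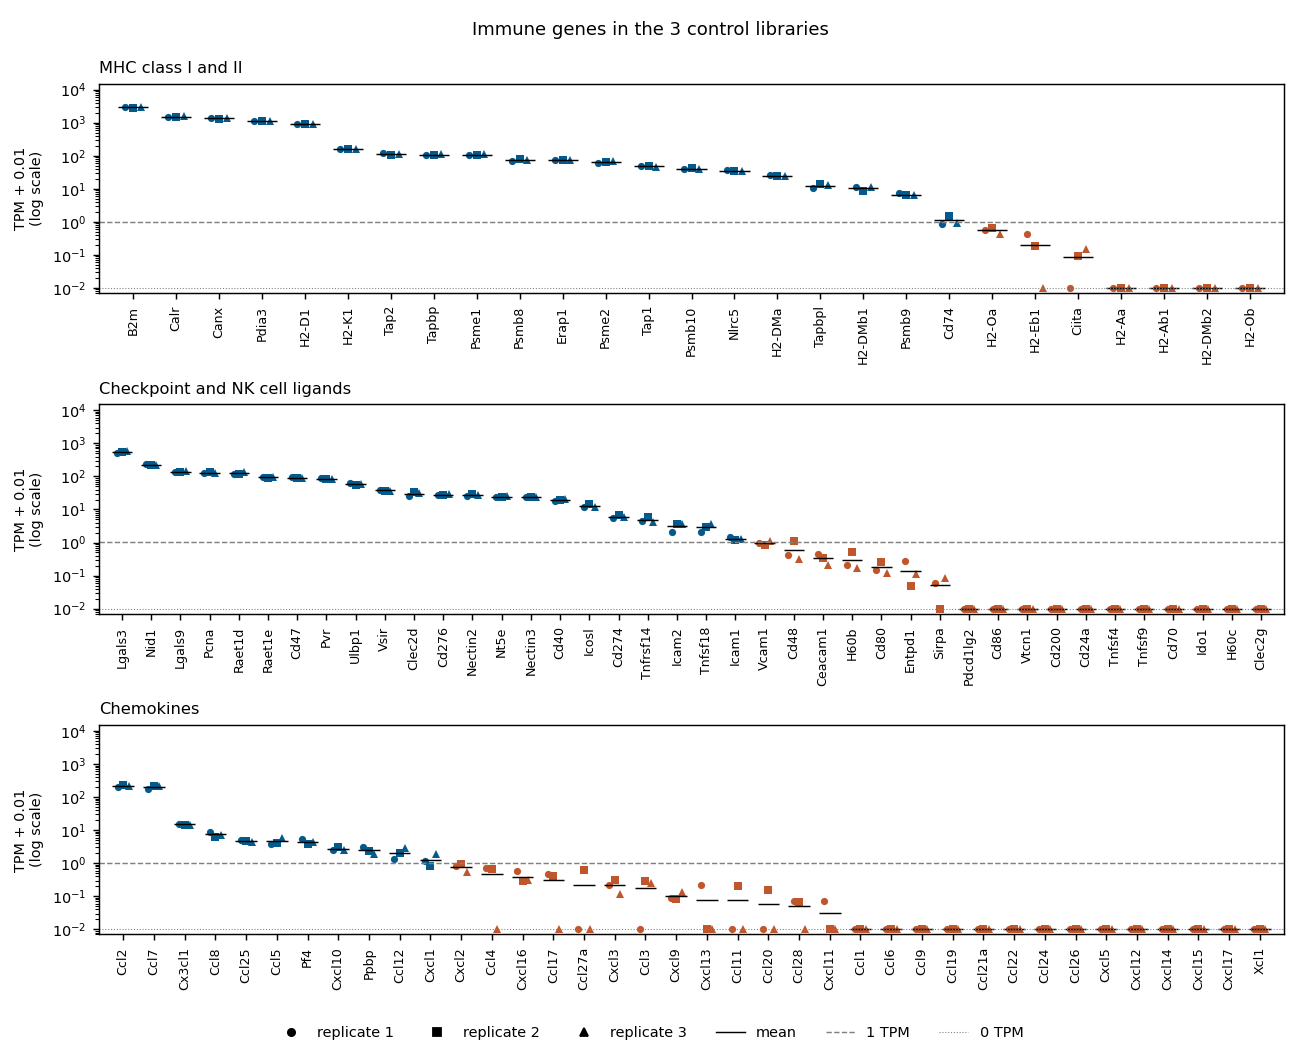
Points are the 3 control libraries, short lines their means, and the vertical axis is TPM plus 0.01 on a log scale, with a dashed line at 1 TPM and a dotted line at 0; blue marks a mean of at least 1 TPM and orange a lower one. MHC class I genes lie above 1 TPM and the class II chains H2-Aa and H2-Ab1 at 0, and Ccl2 and Ccl7 stand apart from the other chemokines.

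Receptors and sensors of the interferon system were expressed, and its stimulated genes were uneven. The receptor chains Ifnar1, Ifnar2, Ifngr1 and Ifngr2 stood at 50.1, 17.4, 56.6 and 37.5 TPM. The DNA sensing adapter Tmem173 (STING) had 215, 209.6 and 207 TPM, while the sensor Cgas had 9.51, 11.5 and 10.12 TPM. Aim2, which opens the inflammasome on DNA, was at 134 ± 2.76 TPM, Tlr4 at 46.1 ± 2.33 TPM and the RNA sensor Ddx58 at 34.5 ± 1.82 TPM. Zbp1 had 0 counts in every library. Stat2, through which interferon acts, was at 15.7 ± 0.825 TPM, and the factor Irf7 was at 1.43 ± 0.241 TPM. Of the stimulated genes, Ifitm3 had 1645, 1688 and 1781 TPM and the tetherin Bst2 had 522, 530.4 and 543 TPM. Isg15 (31.99 ± 4.44 TPM), Rsad2 (3.98 ± 0.241 TPM) and Ifit1 (2.53 ± 0.185 TPM) were lower, and Mx1 had 2, 6 and 4 counts, Oas2 2, 3 and 1 counts and Gbp4 1, 1 and 3 counts. In total 27 of 41 were expressed at a list median of 2.37 TPM, and 28 of 34 receptors, sensors and factors at 14.9 TPM.

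Genes of receptor-driven death were widely expressed. The necroptosis kinase Ripk3 had 162, 168 and 166 TPM and its effector Mlkl had 361, 352 and 363 TPM. Casp8, which starts apoptosis from death receptors, was at 97.3 ± 0.889 TPM and its inhibitor Cflar at 25.2 ± 0.541 TPM. The death receptors Fas (5.75 ± 0.659 TPM) and Tnfrsf10b (27.0 ± 1.05 TPM) were below the TNF receptor Tnfrsf1a (268 ± 1.80 TPM) in every library. Of this list 34 of 38 genes were expressed.

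Of 29 leukocyte signaling genes 13 (44.8%) were expressed, near the 48.0% of protein-coding genes. Outside that list, Il2rg, the common gamma chain, stood at 92.0 ± 3.78 TPM with 30.5% of its exon bases overlapping another gene. Within it, the phosphatase Inpp5d (SHIP1) had 59.4, 59.1 and 58.1 TPM, the exchange factor Vav1 had 8.37, 8.44 and 7.81 TPM and the adapter Lcp2 had 5.74, 4.27 and 5.99 TPM. Of the kinases of these pathways, Lyn (46.8 ± 1.30 TPM) and Lck (5.45 ± 0.344 TPM) were expressed, and Syk (1, 1 and 0 counts), Zap70 (1, 3 and 0 counts) and Btk (0, 1 and 2 counts) were not detected. Beside these values, 17 of 21 leukocyte markers were below the expressed class, with Ncr1 and Adgre1 at 0 and Ptprc at no more than 0.0914 TPM in a library. The 4 expressed markers, Lyz2, Ly6g, Cd68 and Coro1a, had mean levels of 13.1, 11.98, 7.81 and 5.07 TPM, Lyz2 and Ly6g being above Vav1 and Lcp2 in every library, and the part of other cells in these levels was not tested.

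Among receptor tyrosine kinases 20 of 53 were expressed. Axl had 365, 371 and 372 TPM, Met, the receptor of hepatocyte growth factor, had 273, 273 and 285 TPM, and Fgfr1 had 258, 254 and 241 TPM. Axl stood above Met and Met above Fgfr1 in every library. Of the other FGF receptors, Fgfr2 had 0, 1 and 1 counts and Fgfr4 had 2, 0 and 1 counts, and both were not detected. Epha2 was at 110.5 ± 3.93 TPM, and the MET relative Mst1r had 1, 3 and 1 counts. Downstream, 39 of 41 genes of the RAS, ERK and PI3K pathways were expressed. Nras had 187, 189 and 186 TPM and Hras had 43.8, 45.6 and 43.6 TPM, and Hras was below Nras in each library. The ERK feedback phosphatases Dusp4 (261 ± 3.69 TPM) and Dusp6 (188 ± 8.35 TPM) were high, and the leukocyte PI3K catalytic subunit Pik3cg had 0 counts in every library.

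Among AP-1 genes Fosl1 and Jun were high, whereas Fos was below the expressed class. The list of AP-1 and EGR factors held 4 high genes among 15, and the level of its member Jund is not reported here. Fosl1 (FRA1) had 302, 305 and 298 TPM, Jun had 207, 211 and 217 TPM and Fos had 2, 3 and 10 counts. The immediate early factors Egr1 (10, 22 and 15 counts) and Egr2 (0 counts in every library) were also below the expressed class, while Ier3 stood at 739.8 ± 21.998 TPM. The NF-kB list was expressed in full (18 of 18), with the subunit Rela at 214 ± 4.38 TPM, Nfkb2 at 99.4 ± 3.29 TPM and the inhibitor Nfkbia at 157 ± 10.6 TPM. In the JAK and STAT list 20 of 25 genes were expressed. Jak1 (269, 263 and 266 TPM) lay far above Jak2 (21.7, 21.6 and 23.9 TPM). Stat6 and Stat3 were at 216 ± 8.64 TPM and 95.2 ± 1.52 TPM, and Stat4, Socs2 and Cish had 0 counts in every library.

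Developmental pathways were expressed in part. The lists of Wnt receptors and effectors, TGF-beta and BMP, Notch, and Hedgehog genes were expressed in 22 of 42, 26 of 38, 19 of 28 and 6 of 11 genes, or 52.4%, 68.4%, 67.9% and 54.5%, against 48.0% of protein-coding genes. Beta-catenin (Ctnnb1) stood at 453 ± 10.2 TPM, and the Wnt target Axin2 at 4.95 ± 0.286 TPM. Lef1 had 0 counts in every library, and Tcf7, another partner of beta-catenin, was expressed at 12.96 ± 0.624 TPM. Among 19 Wnt ligands 6 were expressed, Wnt7b being highest at 40.8, 34.5 and 39.3 TPM, and Wnt1, Wnt2 and Wnt3a had 0 counts in every library. The TGF-beta receptors Tgfbr1 (21.3 ± 1.203 TPM) and Tgfbr2 (44.1 ± 1.41 TPM) and the transducer Smad4 (143 ± 4.53 TPM) were expressed, as were the ligands Tgfb1 (72.6 ± 3.39 TPM), Tgfb2 (9.74 ± 0.910 TPM) and Tgfb3 (26.9 ± 0.966 TPM), whereas Bmp2 and Bmp4 had 0 counts. Notch2 (70.5 ± 1.45 TPM) lay above Notch1 (40.6 ± 1.88 TPM), and Notch3 (0, 0 and 1 counts) and Hey1 (0 counts in every library) were not detected. In the Hedgehog list the receptor Ptch1 (41.3 ± 1.18 TPM) and the transducer Smo (108 ± 3.74 TPM) were expressed, the effector and target Gli1 was low at 2.54 ± 0.223 TPM, the ligand Dhh was at 5.57 ± 0.00958 TPM and the ligand Shh had 0 counts in every library.

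YAP and TEAD pathway genes were expressed in 18 of 19 genes. The coactivators Wwtr1 (TAZ) and Yap1 had 246, 233 and 239 TPM and 121, 117 and 121 TPM, and TAZ lay above YAP in every library. Their usual target genes differed in level, with Ccn1 at 72.9 ± 3.79 TPM but Ccn2 at 4.64 ± 0.430 TPM and Ankrd1 at 4.005 ± 0.288 TPM. Among 47 nuclear receptors 22 (46.8%) were expressed, near the 48.0% of protein-coding genes. The highest was the glucocorticoid receptor Nr3c1 at 142, 131 and 135 TPM.

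Cyclins, CDKs and CDK inhibitors were expressed in 35 of 39 genes, with a list median of 85.2 TPM. The D-type cyclins Ccnd1 (566, 538 and 556 TPM) and Ccnd2 (382, 379 and 382 TPM) and their kinase Cdk4 (358 ± 12.8 TPM) were high, as were the proliferation markers Ccna2 (615 ± 5.53 TPM) and Top2a (446 ± 6.55 TPM), and Mki67 (95.3 ± 7.73 TPM) was expressed. The INK4 inhibitors of that kinase parted, with Cdkn2c (84.5, 88.1 and 83.1 TPM) and Cdkn2d (95.7, 84.7 and 90.1 TPM) expressed and the other pair not detected. Cdkn2a (chr4:89274471-89294653), which encodes p16 and p19ARF, and its neighbor Cdkn2b (chr4:89306289-89311032) had 0 counts in every library, where 3 counts would be at most 0.612 TPM for Cdkn2a. Mtap (chr4:89137122-89181081), the flanking gene, had 223, 235 and 237 TPM. The inhibitors Cdkn1a (78.4 ± 3.38 TPM) and Cdkn1b (140.0 ± 3.98 TPM) were expressed.

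The tumor suppressor Trp53 had 199, 205 and 204 TPM, and of its 20 target genes 18 were expressed, among them Mdm2 (85.2 ± 1.06 TPM), Bax (255 ± 6.67 TPM) and Ccng1 (109 ± 8.08 TPM). Perp, a junction-associated target, had 0 counts in every library. Myc was the high member of its family at 459.7, 453 and 481 TPM, while Mycn had 0 counts in every library and Mycl 1, 2 and 2 counts. In the stem and progenitor list 10 of 19 genes (52.6%) were expressed, near the 48.0% of protein-coding genes. Among them were nestin (Nes, 264 ± 7.95 TPM) and Hmga2 (91.5 ± 3.93 TPM), while Sox2, Sox4 and Aldh1a1 had 0 counts in every library. Telomerase (Tert) was expressed at 2.89 ± 0.253 TPM, in a list of oncogenes and tumor suppressors of which 22 of 28 genes were expressed.

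Genes of glucose and lipid use were nearly all expressed, with 31 of 33 of the former list and 20 of 20 of the latter. Lactate dehydrogenase was represented by Ldha (1597, 1648 and 1659 TPM), and Ldhb, the heart-type chain, had 0 counts in every library. Ldhb shares 20.99% of its windows with other loci, and the part of shared sequence in its counts was not tested. The glucose transporter Slc2a1 was at 251 ± 9.05 TPM, and the hypoxia marker Car9 at 1.43 ± 0.208 TPM. Scd2, the fatty acid desaturase, had 1401, 1241 and 1288 TPM, above Scd1 (314, 279.7 and 302 TPM) in every library, and Fasn was at 272 ± 2.67 TPM.

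Hox genes, which record body position, were expressed in a part of each cluster. In the D cluster Hoxd8 had 56.0, 52.5 and 50.6 TPM, Hoxd9 92.2, 98.7 and 93.6 TPM and Hoxd10 86.4, 91.9 and 84.1 TPM, whereas their neighbors Hoxd11 and Hoxd13 had 0 counts in every library. The expressed block thus ended between Hoxd10 and Hoxd11. In the C cluster Hoxc10 stood out at 75.8, 71.8 and 76.7 TPM, in the A cluster Hoxa10 at 13.5, 13.7 and 14.6 TPM, and in the B cluster Hoxb13 at 11.4, 9.02 and 11.004 TPM. Over the clusters 14 of 39 Hox genes were expressed, 1 in A, 4 in B, 5 in C and 4 in D. Hoxd4, at 1.59 ± 0.448 TPM, overlaps another gene over 52.3% of its exon bases.

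Of the imprinted genes and X inactivation RNAs listed, 16 of 21 were not detected. H19, Meg3 and Dlk1 had 0 counts in every library, Peg3 had 0, 1 and 0 counts and Igf2 had 0, 0 and 3 counts. These genes are active in embryonic and placental tissue and many are shut down after birth. Gnas (282 ± 3.72 TPM), Igf2r (51.4 ± 1.43 TPM) and Airn (2.31 ± 0.470 TPM), the antisense transcript at Igf2r, were the expressed ones. Xist, which coats the inactive X chromosome, had 0, 1 and 1 counts. Of the protein-coding genes on the X chromosome 35.0% were expressed, and of 183 on the Y chromosome 1 was.

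Of the 21 long noncoding RNAs listed, 16 were expressed, and some varied between the libraries. Among them Rmrp (4, 4 and 4 counts), Rpph1 (6, 6 and 23 counts) and Rn7sk (16, 2 and 19 counts) rested on few counts. Neat1, the scaffold of paraspeckles, had 42.8, 45.8 and 22.8 TPM, so that replicate 3 lay below the other 2. Malat1 had 104, 78.7 and 65.1 TPM, highest in replicate 1 and lowest in replicate 3. Gas5 (185 ± 18.7 TPM) and Tug1 (73.7 ± 1.55 TPM) were expressed, and Hotair and Fendrr had 0 counts in every library. Neat1 was also among the 10 genes of largest gene-wise coefficient of variation with a mean of at least 5 TPM. The others had at most 194 counts in a library. They included the pseudogene Gm11539 (34, 11 and 17 counts), Rhov (56, 101 and 60 counts), Actg1 (84, 80 and 50 counts) and Gm12940 (182, 194 and 117 counts). The mitochondrial share was likewise highest in replicate 1 and lowest in replicate 3, and its part in these differences was not tested.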

How the data were processed

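RNA was sequenced as single-end reads of 50 bases. As described in the study's methods, the labels and the file headers, the authors trimmed reads with Trimmomatic, aligned them with STAR to GRCm38 and counted them on the exons of GENCODE M13 genes with featureCounts 1.5.1, using strand. By default that program leaves out reads that map to several places or overlap several genes. The deposited values are raw read counts per gene for each library, without normalization or pooling. Library depth was 16452260, 18482623 and 20828547 counts over 50686 genes, and 3 counts in a library, the floor used here, equal 0.144 to 0.182 CPM. Floors cover counting error only.

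Symbols for 50376 and biotypes for 50462 genes came from GENCODE M21 on the same build. Counts were scaled to TPM with the length column of the files. The spread was estimated with edgeR 4.0.16 in R 4.3.3, over 11555 genes with at least 10 counts in every library, and DESeq2 1.42.0 gave alternative size factors. There was a single group, so no test was run. The 54 gene lists were drawn up with earlier results of these data known. The libraries were picked by their titles alone, although those results were known then as well. Named genes were the defining members of each list, up to 4 of its highest and up to 4 of its not detected members, the 20 highest protein-coding genes, the 10 highest long noncoding RNAs and the 10 most variable genes above 5 TPM. Other genes named, among them chains or paralogs of a named gene, were added after their values were seen, and some genes that the rule picks are not reported here. Shared sequence was the share of a gene's 50-base windows found exactly in a transcript of another locus. Promoter windows were matched by gene ID or symbol for 16469 of 21841 protein-coding genes, without chromosome 18. In simulated libraries with 200 genes set to known levels among 50686 genes, 197 fell in their class. Genes set to no expression could not fall elsewhere, and for those set below 1 TPM trace or not detected was accepted. No gene was set at the limits of 1 TPM and 100 TPM, so errors there were not measured.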

Additional observations from a re-analysis of the deposited data

How the results depend on the processing

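No paired analysis was possible because a single group was described and no test was run. The count of expressed genes was 11748 over all genes and ranged from 10861 to 12613 under the other thresholds, length, scaling and size factor settings, and that of protein-coding genes was 10490 and ranged from 10080 to 10866. Leaving out each library in turn gave 11888 to 11945 genes, and 10533 to 10562 protein-coding ones. The coefficient of variation was 0.0294 to 0.0416 with 1 library left out, the highest value being that without replicate 2. Of 54 lists, the counts of expressed members that moved by over 1.5 times were fibroblast and pericyte markers at 2 TPM (3 in place of 5), chemokines at 1 CPM (5 in place of 10), Hox A genes at 0.5 TPM (2 in place of 1) and Hox C genes at 2 TPM (3 in place of 5). The cause is the threshold itself. Scaling without mitochondrial genes raised every named level above 1 TPM by a factor of 1.04, and no scaling moved one beyond 0.969 to 1.14 times its value. Of 532 named levels, 176 then moved by more than 1 SD, 86 did with scaling over protein-coding genes, 76 with the shortened length and 5 among the 316 left with at least 10 counts in every library, while the TMM and DESeq2 factors moved none by that much. Leaving out a library moved such levels to between 0.607 and 1.24 times. Levels under about 0.2 CPM cannot be told from 0 at this depth. Where genes overlap or share sequence, the counts are lower limits whose size was not tested.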
